A study of Mus musculus with 6 samples.

Results

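The genes described here are 39 imprinted genes of the mouse, chosen by symbol from the 24421 gene symbols of the count table, and every one of the 39 has a row. RNA was measured in explants of the neonatal cochlea, the hearing organ, taken from wild-type mice at postnatal day 2 with the stria vascularis anlage, the modiolus and the tectorial membrane removed. The 3 neomycin samples were cultured for 12 h, received 1 mM neomycin, an aminoglycoside that kills hair cells (HCs), for 6 h, and stayed in culture with 10 μM EdU for another 5 days. The 3 control samples carry the treatment label control, although the protocol text of all 6 samples names the neomycin step, and they are taken here as explants without neomycin. Each sample pooled 6 to 8 cochleae, so p-values measure the spread between pools. The labels give neither the strain of the parents nor their cross, and the counts do not separate the maternal from the paternal copy.

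Imprinted genes are transcribed mainly from the copy inherited from the mother or mainly from that of the father, following DNA methylation set in the germ cells at imprinting control regions. They lie in clusters in which protein-coding genes share a control region with a long noncoding RNA, and several noncoding RNAs silence their neighbours on the same chromosome. Many control fetal growth and fall in level after birth, and in several tissues genes expressed from the paternal copy promote growth while those expressed from the maternal copy restrain it. In the cochlea the cyclin-dependent kinase inhibitor family, to which the imprinted Cdkn1c belongs, is known for keeping supporting cells (SCs) out of the cell cycle.

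The libraries held 50471116 to 66068108 counts. Standard errors given below come from the edgeR fit and include the spread between pools. Of 15988 genes with enough counts to test, 4629 had an adjusted p under 0.05 (edgeR quasi-likelihood test, Benjamini-Hochberg), which is 29.0%, and 1413 (8.84%) also changed over 1.5-fold. Fold changes followed exon length over all tested genes, with a median log2 fold change of 0.24 in the fifth with the shortest exons (median 1600 bases) and -0.19 in the fifth with the longest (median 9641 bases), so values with this trend removed are given beside the calls that depend on it. Markers of several cell types moved in the same comparison. The summed level of 14 HC markers was 799 to 898 CPM (counts scaled by TMM to a library of 1e+06) in control and 255 to 315 CPM after neomycin, with 13 of the 14 lower. The summed level of 14 SC markers was 5315 to 6534 CPM in control and 6910 to 10003 CPM after neomycin, with 3 higher and 4 lower, and Tectb, a tectorial membrane gene, alone was at 4230 CPM in control and 6445 CPM after neomycin. Of 11 macrophage markers 6 were higher and 0 lower, with sums of 200 to 262 CPM and 282 to 344 CPM, of 10 endothelial markers 6 were lower and 0 higher, with sums of 365 to 410 and 348 to 399 CPM, and of 12 proliferation genes 6 were lower and 0 higher, with sums of 209 to 262 and 186 to 223 CPM. Of 14 neuronal markers 4 were lower and 1 higher (sums of 258 to 364 and 247 to 267 CPM), of 13 mesenchymal markers 5 lower and 1 higher (5610 to 6297 and 5460 to 5735 CPM), of 7 cartilage markers tested 4 higher and 0 lower (7924 to 9325 and 9980 to 10429 CPM), and of 9 Schwann cell markers 1 lower and 0 higher (211 to 263 and 206 to 241 CPM). Most of the endothelial sum was Emcn, which was not called and was at 252 CPM in control and 273 CPM after neomycin. No marker was at 0 in all samples. The part of these cell types in the values below was not tested, and in whole explants fewer cells of a type and less RNA per cell cannot be told apart.

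The start regions of 3 members that changed are shown, each running from 250 bases before to 50 bases after an annotated start. Where a gene has several starts the first listed was taken, and whether it is the imprinted one was not examined. Every CG, the dinucleotide that carries the methylation of imprints, is in capitals. The sequences are from RefSeq on GRCm38.p6, the assembly of mm10, on the strand of the gene. Peg3 is shown because it had the largest fall among members above 1 CPM and because its window shares 263 bases with that of Usp29, which starts on the opposite strand. Nnat had a rise of 1.72-fold and Slc38a4 a fall to 0.550 of the control level.
Peg3, chr7:6730370-6730669, minus strand: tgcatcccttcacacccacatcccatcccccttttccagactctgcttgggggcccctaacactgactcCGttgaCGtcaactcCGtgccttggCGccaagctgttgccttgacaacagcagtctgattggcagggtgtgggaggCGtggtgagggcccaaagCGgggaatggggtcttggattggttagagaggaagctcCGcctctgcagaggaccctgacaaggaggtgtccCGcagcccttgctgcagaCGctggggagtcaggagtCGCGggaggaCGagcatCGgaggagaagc
Nnat, chr2:157559828-157560127, plus strand: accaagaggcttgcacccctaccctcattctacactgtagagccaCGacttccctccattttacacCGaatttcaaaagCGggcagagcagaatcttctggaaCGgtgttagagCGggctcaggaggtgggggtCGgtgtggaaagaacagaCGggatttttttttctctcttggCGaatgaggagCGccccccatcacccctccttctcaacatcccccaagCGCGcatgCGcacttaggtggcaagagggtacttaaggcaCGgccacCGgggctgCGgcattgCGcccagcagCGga
Slc38a4, chr15:97055907-97056206, minus strand: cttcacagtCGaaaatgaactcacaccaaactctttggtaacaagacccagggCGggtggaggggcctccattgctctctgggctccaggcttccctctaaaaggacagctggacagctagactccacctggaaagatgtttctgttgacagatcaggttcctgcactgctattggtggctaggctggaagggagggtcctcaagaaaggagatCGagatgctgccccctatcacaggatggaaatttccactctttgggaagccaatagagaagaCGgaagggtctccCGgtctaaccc

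The Peg3 window holds 13 CG, the Nnat window 17 and the Slc38a4 window 5. At least as many were found in 38.5%, 31.9% and 61.7% of the first start windows of 27025 genes, so none of the 3 stands far from other genes by this count. A promoter was given for 31 of the 39 members, with a median of 12 CG against 7 over all genes. The letters GCCATNTT, a core bound by the factor YY1, were searched on either strand and occurred in 2 of the 31 windows and in 6.23% of all windows, and in 0 of the 3 shown. Bases outside these windows were not searched, so the counts do not speak to sites elsewhere in a gene.

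Of the 39 members, 35 passed the filter on low counts and 12 had an adjusted p under 0.05, or 34.3%, against 29.0% of all genes tested. The 4 that were higher after neomycin were Cdkn1c, Nnat, Ndn and Impact, where 12.9% of all genes were called higher. The 8 that were lower were Zim1, Peg3, Slc38a4, Peg10, Igf2r, Peg13, Grb10 and Ube3a, where 16.1% of all genes were called lower. Past a fold change of 1.5 there were 2 higher, Cdkn1c and Nnat, and 4 lower, Zim1, Peg3, Slc38a4 and Peg10, against 2.24% and 6.60% of all genes. Together these 6 are 17.1% of the members tested, above the 8.84% of all genes. With the length trend removed 5 members passed 1.5-fold, or 14.3%, and the share of all genes past it in that fit was not computed. Peg10 (log2 fold change -0.558) and Nnat (0.578) then fell short of 1.5-fold, and Zim1 lost its call. Dlk1 (0.591) and Kcnq1ot1 (0.597) passed instead. No overlap between control and neomycin samples was seen for 17 of the 35, or 48.6%, against 43.5% of all genes. The median log2 fold change of the 35 was 0.01, and that of all genes was -0.0041. Members thus moved in either direction, with a median near 0. With the length trend removed the split turned, with 9 called higher and 5 lower (25.7% and 14.3%, together 40.0%), where 10.4% and 13.1% of all genes, together 23.5%, were called in that fit, and with library totals alone it was 3 higher and 10 lower. Leaving out control replicates 1 and 2 gave 5 and 4 lower, and leaving out neomycin replicates 1, 2 and 3 gave 4, 4 and 5. Over all genes fewer were called lower in these fits as well, where all samples gave 2571. The numbers were 1822 and 1505 without control replicates 1 and 2, and 2408, 1511 and 1801 without neomycin replicates 1, 2 and 3. Past 1.5-fold, 2 were lower when control replicate 1 or neomycin replicate 2 was left out. In each of 16 alternative analyses 7 members were called in the same direction, Cdkn1c, Nnat and Ndn higher and Peg3, Slc38a4, Peg10 and Igf2r lower.

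**Figure D1:**
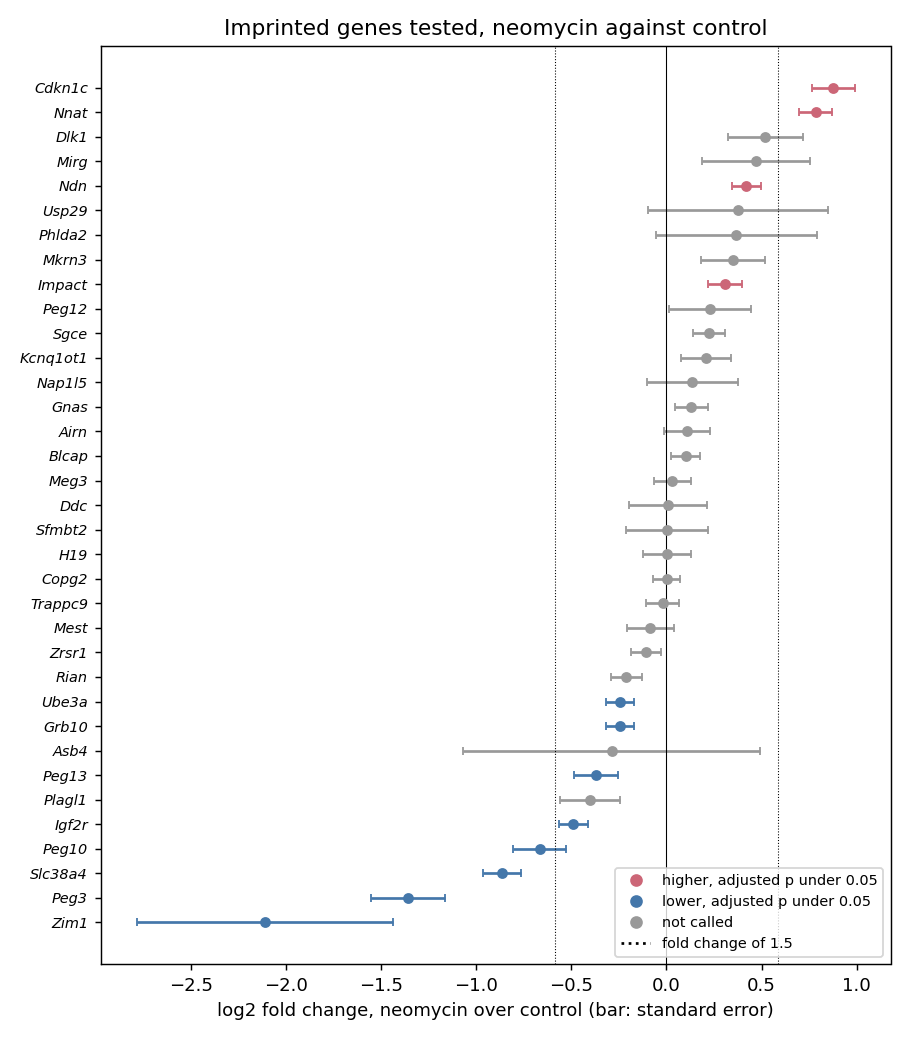
Log2 fold change of neomycin over control for the 35 imprinted genes tested, with standard errors as bars and colours for the call at an adjusted p under 0.05 (edgeR). Values run from -2.11 for Zim1 to 0.88 for Cdkn1c, and the dotted lines mark a fold change of 1.5.

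Cdkn1c rose, and Igf2r and Grb10 fell. Cdkn1c encodes the cyclin-dependent kinase inhibitor p57Kip2, is expressed from the maternal copy, and lies on chromosome 7 from 143458339 to 143461050. It was at 252, 177 and 199 CPM in control replicates 1, 2 and 3 and at 372, 381 and 400 CPM in the neomycin samples. Every neomycin sample lay above every control sample, and the control samples were the more spread (209 ± 38.4 against 384 ± 14.6 CPM, SD, n = 3). Its log2 fold change was 0.88 ± 0.11 (SE, edgeR adjusted p = 0.000209), the highest of the members tested, and 0.69 with the length trend removed. Igf2r, the maternally expressed receptor that carries IGF2 to lysosomes, lies on chromosome 17 from 12682406 to 12769664. It was at 137, 136 and 119 CPM in control and 90.8, 92.2 and 96.2 CPM after neomycin. The neomycin samples all lay below the control samples, with a log2 fold change of -0.49 ± 0.08 (SE, edgeR adjusted p = 0.000792), and -0.32 with the length trend removed. Grb10, an adaptor that dampens signals of the insulin and IGF receptors, is expressed from the maternal copy outside neurons and lies on chromosome 11 from 11930508 to 12038683. It was at 236, 242 and 218 CPM in control and 192, 199 and 197 CPM after neomycin, again without overlap. Its log2 fold change was small, -0.24 ± 0.07 (SE, edgeR adjusted p = 0.0249), and -0.08 with the length trend removed (adjusted p = 0.403), which ended the call. The adjusted p of Grb10 was 0.0666, 0.110, 0.0657, 0.0881 and 0.0753 without control replicates 1 and 2 and neomycin replicates 1, 2 and 3. Phlda2, a maternally expressed restraint on placental growth, was at 0.463 CPM in control and 0.596 CPM after neomycin, a log2 fold change of 0.37 ± 0.42 (SE) that was not called.

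H19, the maternally expressed noncoding RNA next to Igf2, was by far the most abundant member and did not differ. It took 0.916% to 1.05% of all counts in the control libraries and 0.818% to 1.05% after neomycin, ranked 3 of all genes by mean CPM in control, and lies on chromosome 7 from 142575529 to 142578143. H19 was at 9115, 8864 and 10554 CPM in control and 8197, 10878 and 9541 CPM after neomycin. The groups overlapped fully, and the log2 fold change was 0.00 ± 0.13 (SE, edgeR adjusted p = 0.985). Igf2, the paternally expressed growth factor of the same domain and not a member here, was at 2747 ± 221 CPM in control and 2714 ± 216 CPM after neomycin (SD, n = 3) and was not called (log2 fold change -0.02, edgeR adjusted p = 0.917). The H19 transcript holds the hairpin of miR-675 in an exon, and the separate row of that microRNA, Mir675, was at 0 counts in all 6 samples. How reads lying in both features were counted is not given in the sources used here. The mature sequences are shown from RefSeq with the seed, bases 2 to 8, in capitals.
mmu-miR-675-5p: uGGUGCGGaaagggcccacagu
mmu-miR-675-3p: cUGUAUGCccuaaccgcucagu

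In the Peg3 domain on chromosome 7, Peg3 and Zim1 fell. Peg3, a paternally expressed zinc finger protein that controls growth and maternal behaviour, lies from 6703892 to 6730431. It was at 20.2, 17.4 and 12.1 CPM in control replicates 1, 2 and 3 and at 7.85, 6.69 and 4.90 CPM in the neomycin samples. Every neomycin value lay below every control value, at 0.391 of the control level, a log2 fold change of -1.36 ± 0.20 (SE, edgeR adjusted p = 0.000487) and -1.12 with the length trend removed. Zim1, a maternally expressed zinc finger gene beside it, from 6671269 to 6696450, had 36, 14 and 13 counts in control and 1, 5 and 7 after neomycin. These few counts gave a log2 fold change of -2.11 ± 0.67 (SE, edgeR adjusted p = 0.0344), and -1.96 (adjusted p = 0.0513) with the length trend removed. Without control replicate 1 or 2 or neomycin replicate 1 or 2 the adjusted p of Zim1 was 0.173, 0.0698, 0.104 or 0.0971. Usp29, a ubiquitin-specific peptidase gene read from the opposite strand, starts 147 bases from Peg3 in GENCODE, and it shares the start region printed above. It had 32, 14 and 20 counts in control and 26, 16 and 36 after neomycin. The groups of Usp29 overlapped, with a log2 fold change of 0.38 ± 0.47 (SE, edgeR adjusted p = 0.585), and Zim3 shares 14.3% of its exon bases on the other strand.

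**Figure D2:**
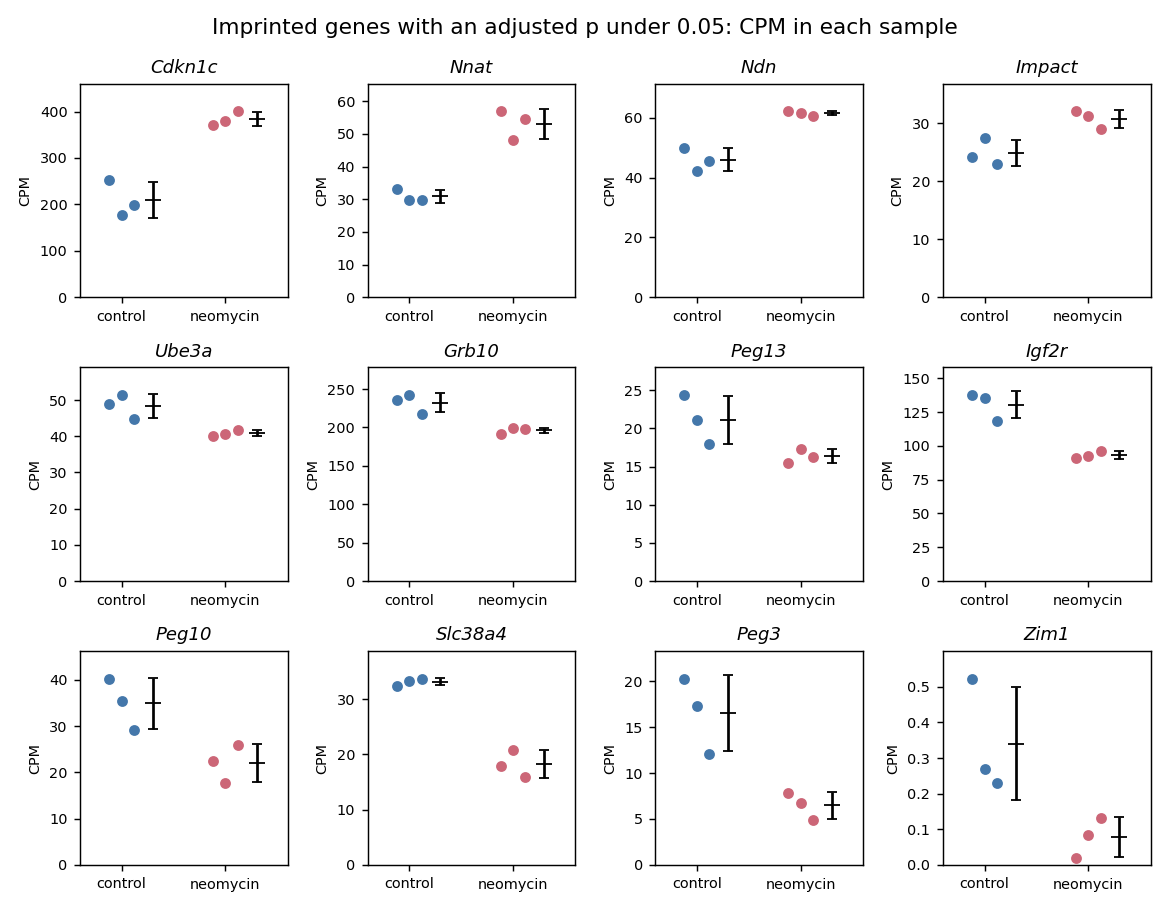
CPM of the 12 imprinted genes with an adjusted p under 0.05 (edgeR) in each of the 3 control and 3 neomycin samples, on axes that start at 0, with the mean and SD of each group as a bar to the right of its points. The groups overlap in none of the 12, and Zim1 is the gene with the lowest level, at most 0.522 CPM in any sample.

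Peg10 and Sgce on chromosome 6 start 99 bases apart on opposite strands and are read from the paternal copy. Peg10, a gene derived from a retrotransposon and needed in the placenta, lies from 4747306 to 4760517. It was at 40.2, 35.4 and 29.2 CPM in control and 22.4, 17.7 and 26.0 CPM after neomycin. Peg10 fell without overlap, by 0.67 ± 0.14 on the log2 scale (SE, edgeR adjusted p = 0.00465). With the length trend removed its log2 fold change was -0.56 (edgeR adjusted p = 0.00793). Sgce, which encodes epsilon-sarcoglycan of the dystrophin complex, was at 44.9, 39.0 and 44.8 CPM in control and 46.8, 49.3 and 54.1 CPM after neomycin. The neomycin values of Sgce were all above the control values but the gene was not called, with a log2 fold change of 0.22 ± 0.08 (SE, edgeR adjusted p = 0.0621), against 0.41 (adjusted p = 0.00701) with the length trend removed. Leaving out control replicate 3 or neomycin replicate 1 gave 0.0435 or 0.0446. Asb4 of the same domain, a SOCS box gene expressed from the maternal copy, had 13 to 17 counts in control and 0 to 18 after neomycin.

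Slc38a4, a transporter of amino acids expressed from the paternal copy, lies on chromosome 15 from 96994820 to 97055956. It was at 32.4, 33.3 and 33.6 CPM in control and 17.8, 20.9 and 15.9 CPM after neomycin. The control samples were close together (33.1 ± 0.616 CPM, SD, n = 3), and all neomycin samples lay far below them, with a log2 fold change of -0.86 ± 0.10 (SE, edgeR adjusted p = 0.000121) that stayed at -0.86 with the length trend removed. Mest, a paternally expressed gene of the hydrolase fold, and Copg2, a coat protein of transport vesicles, overlap at their ends on opposite strands over 912 bases. Mest was at 49.5 ± 6.25 CPM in control and 46.7 ± 8.60 CPM after neomycin (SD, n = 3), with an adjusted p of 0.639 (edgeR). Copg2 was at 78.1 ± 1.86 CPM and 78.2 ± 4.37 CPM (SD, n = 3), with an adjusted p of 0.992 (edgeR). Neither differed by more than the spread between samples. Plagl1, a paternally expressed zinc finger factor that restrains the cell cycle and acts on other imprinted genes, was at 21.1, 29.8 and 22.7 CPM in control and 14.2, 20.6 and 21.0 CPM after neomycin. Plagl1 did not overlap but was not called (log2 fold change -0.40, edgeR adjusted p = 0.0716). It was called in 6 of the 16 alternatives, among them DESeq2 (adjusted p = 0.0382), library totals alone (0.0428), no filter (0.0355) and omission of control replicate 1 (0.0382), and not with the length trend removed (0.252).

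In the Dlk1-Meg3 domain on chromosome 12, 0 of 4 tested members were called by edgeR, 2 had an unadjusted p under 0.05 (Dlk1 and Rian, whose groups did not overlap), DESeq2 called 1 (Dlk1) and limma-voom 0. Over all genes 29.0% were called and 43.5% did not overlap. Dlk1, a paternally expressed transmembrane relative of the Notch ligands, was at 5.16, 5.12 and 3.68 CPM in control and 5.63, 8.58 and 5.79 CPM after neomycin. Its log2 fold change was 0.52 ± 0.20 (SE, edgeR adjusted p = 0.0659), 0.59 with the length trend removed (adjusted p = 0.0389), and its adjusted p was 0.0410 without neomycin replicate 1. The maternally expressed noncoding RNAs were Meg3, Rian and Mirg, which host small nucleolar RNAs and microRNAs. Meg3 was at 52.4 ± 6.51 CPM in control and 53.5 ± 4.72 CPM after neomycin (SD, n = 3), with overlapping groups and an adjusted p of 0.843 (edgeR). Rian was at 37.5 ± 2.00 and 32.4 ± 2.08 CPM (SD, n = 3), with an adjusted p of 0.0705 (edgeR). With the length trend removed the direction of Rian turned, to a log2 fold change of 0.06 (edgeR adjusted p = 0.656), and Meg3 was called at 0.31 (edgeR adjusted p = 0.0170). Mirg was low, at 1.47 and 2.03 CPM, and Rtl1, a retrotransposon-derived gene read from the paternal copy, had at most 4 counts in any sample and was not tested.

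Of the 7 members of the Prader-Willi and Angelman domain on chromosome 7, 4 were tested, Ndn was higher and Ube3a lower. Ndn encodes necdin, a paternally expressed MAGE protein that restrains proliferation of neural progenitors, and lies from 62346569 to 62350262. It was at 49.9, 42.2 and 45.7 CPM in control and 62.1, 61.6 and 60.7 CPM after neomycin. The neomycin samples of Ndn were close together and above all control samples, with a log2 fold change of 0.42 ± 0.08 (SE, edgeR adjusted p = 0.00208) and 0.39 with the length trend removed. Ube3a, a ubiquitin ligase read from the maternal copy in neurons, lies from 59228750 to 59311536. It was at 49.0, 51.3 and 44.6 CPM in control and 40.0, 40.7 and 41.8 CPM after neomycin, a log2 fold change of -0.24 ± 0.08 (SE, edgeR adjusted p = 0.0301). With the length trend removed the direction of Ube3a turned, to 0.04 (adjusted p = 0.702), and its adjusted p was 0.0786, 0.137, 0.0717, 0.106 and 0.0664 without control replicates 1 and 2 and neomycin replicates 1, 2 and 3. Peg12, a relative of the Wnt regulator Frat1, was at 4.33 and 5.06 CPM, and Mkrn3, a ubiquitin ligase that delays puberty, at 4.62 and 5.88 CPM, with adjusted p-values of 0.457 and 0.139 (edgeR). Magel2, Snrpn and Snurf were not tested, with at most 11 counts in any sample. Snurf and Snrpn are read as a single transcript and share 216 exon bases in GENCODE, which is 100% of those of Snurf and 10.0% of those of Snrpn, so their counts of 0 to 5 are uncertain as levels.

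Nnat, neuronatin, a small protein of the endoplasmic reticulum expressed from the paternal copy, rose. It lies on chromosome 2 from 157560078 to 157562522, inside an intron of Blcap. Nnat was at 33.1, 29.8 and 29.6 CPM in control and 56.9, 48.0 and 54.5 CPM after neomycin. The groups were well apart, with a log2 fold change of 0.78 ± 0.08 (SE, edgeR adjusted p = 6.01e-05), the lowest adjusted p of the members, and 0.58 with the length trend removed. Blcap, the host gene, was at 57.5 ± 4.66 and 61.7 ± 1.29 CPM (SD, n = 3) and was not called (edgeR adjusted p = 0.334). Impact, a paternally expressed inhibitor of the stress kinase GCN2 on chromosome 18 from 12955852 to 12992950, was at 24.1, 27.4 and 23.0 CPM in control and 32.0, 31.3 and 29.1 CPM after neomycin. Impact did not overlap and rose by a log2 fold change of 0.31 ± 0.09 (SE, edgeR adjusted p = 0.0237), but leaving out control replicate 1 or neomycin replicate 1 or 2 gave an adjusted p of 0.0539, 0.0606 or 0.0891. Gnas, which encodes the stimulatory G protein subunit and several imprinted transcripts that the table sums, was at 1301 ± 56.8 and 1425 ± 47.7 CPM (SD, n = 3). The Gnas samples did not overlap between groups, but the adjusted p was 0.268 (edgeR), and 0.0120 with the length trend removed, at a log2 fold change of 0.33.

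Among the noncoding RNAs, 1 of 7 was called, where 29.0% of all genes were, and the length correction also called Meg3, given above, and Kcnq1ot1. Peg13, a paternally expressed RNA inside an intron of Trappc9 on chromosome 15 from 72805600 to 72810324, was at 24.3, 21.1 and 18.0 CPM in control and 15.5, 17.4 and 16.2 CPM after neomycin. Peg13 fell by 0.37 ± 0.11 on the log2 scale (SE, edgeR adjusted p = 0.0291), with its nearest samples at 18.0 and 17.4 CPM. Without control replicates 1 and 2 and neomycin replicates 1, 2 and 3 its adjusted p was 0.129, 0.0802, 0.0708, 0.0598 and 0.0750. Airn, the antisense RNA that silences the paternal Igf2r, was at 16.4 ± 2.40 CPM in control and 17.6 ± 1.71 CPM after neomycin (SD, n = 3), with an adjusted p of 0.537 (edgeR). Kcnq1ot1, the antisense RNA that silences the paternal Cdkn1c, was at 7.94 ± 1.03 and 9.17 ± 0.601 CPM (SD, n = 3). Kcnq1ot1 was not called (log2 fold change 0.21, edgeR adjusted p = 0.259), and with the length trend removed it was called at 0.60 (adjusted p = 0.00255). The strand setting of the counting is not given in the sources used here, so reads of antisense genes and of the genes they overlap may be mixed.

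The other tested members had adjusted p-values over 0.3 (edgeR) and overlapping groups. They were Zrsr1, a splicing factor gene within Commd1, Trappc9, a part of a vesicle tethering complex, Ddc, the decarboxylase of dopamine synthesis, Sfmbt2, a Polycomb protein, and Nap1l5, a relative of histone chaperones. Zrsr1 was at 40.5 and 37.6 CPM, Trappc9 at 39.7 and 39.2, Ddc at 2.62 and 2.63, Sfmbt2 at 2.12 and 2.13, and Nap1l5 at 2.96 and 3.26 in control and after neomycin.

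Per exon length the members spanned a wide range. In control, RPKM (CPM per 1000 exon bases of GENCODE) was 3866 for H19, 116 for Gnas and 103 for Cdkn1c, and these 3 were the members above 100 RPKM. A further 7 members lay from 10 to 100 RPKM, in falling order Grb10 at 25.5, Blcap at 18.9, Nnat at 16.9, Copg2 at 15.3, Igf2r, Mest at 12.5 and Ndn at 12.4. Mest and Ndn, the nearest of these, did not differ beyond their spread, with control SDs of 6.25 and 3.89 CPM on means of 49.5 and 45.9 CPM. Another 16 lay from 1 to 10 and 13 below 1 RPKM. After neomycin Cdkn1c was at 188 RPKM and Gnas at 127 RPKM, while in control they overlapped, with Cdkn1c at 123, 86.8 and 97.5 RPKM and Gnas at 119, 110 and 120 RPKM. Nnat was at 29.0 RPKM and Grb10 at 21.6 RPKM after neomycin. By the copy named in textbooks, 10 tested members expressed from the maternal copy had 1 higher and 2 lower, with a median log2 fold change of 0.0028, and 19 expressed from the paternal copy had 3 higher and 4 lower, with a median of 0.14, where 12.9% of all genes were higher and 16.1% lower.

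**Figure D3:**
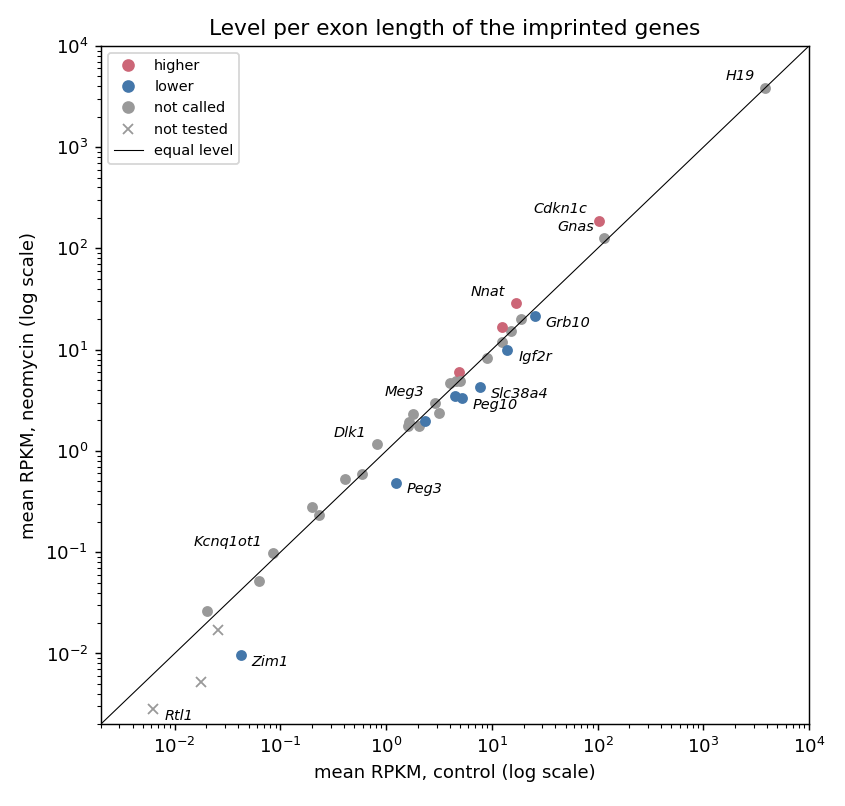
Mean RPKM of the imprinted genes in control (x axis) and after neomycin (y axis), both on log scales, with the line of equal levels and colours for the call at an adjusted p under 0.05. H19 stands alone at 3866 RPKM on the line, Cdkn1c and Nnat lie above it, and Peg3 and Zim1 lie below it, while Snurf, listed at 0 after neomycin, is not drawn.

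A ratio of counts of 2 neighbours within a sample does not depend on library scaling, and 11 such ratios were computed over 6 samples. For 5 of them the groups did not overlap. Each of these gave p = 0.1 in the exact two-sided permutation test, the smallest that 3 samples against 3 allow. The Benjamini-Hochberg value was 0.22 over the 11. Ratios of other gene pairs were not computed, so no share stands beside the 5, and of single genes 43.5% did not overlap. Peg10, Cdkn1c, Nnat and Igf2r, each called on its own above, are among the genes of these ratios. The log2 ratio of Sgce to Peg10 was 0.16, 0.14 and 0.62 in control and 1.06, 1.47 and 1.06 after neomycin, a difference of 0.89 between group means. The log2 ratio of Cdkn1c to Kcnq1ot1 was 4.81, 4.48 and 4.85 in control and 5.23, 5.43 and 5.50 after neomycin, a difference of 0.68. The log2 ratio of Blcap to Nnat was 0.73, 0.88 and 1.09 in control and 0.13, 0.33 and 0.20 after neomycin, a difference of -0.68. A ratio keeps the trend with exon length, and with that trend removed the difference between the 2 log2 fold changes was 0.97 for Sgce and Peg10 and -0.56 for Blcap and Nnat, but 0.10 for Cdkn1c and Kcnq1ot1, whose exon lengths of 2039 and 93092 bases are far apart. The log2 ratio of Igf2r to Airn differed by -0.60 (3.00 ± 0.318 in control and 2.40 ± 0.118 after neomycin, SD, n = 3). The log2 ratio of Dlk1 to Meg3 differed by 0.47 (-3.50 ± 0.0905 and -3.03 ± 0.373, SD, n = 3). With the length trend removed these differences were -0.39 for Igf2r and Airn and 0.28 for Dlk1 and Meg3. The other 6 ratios overlapped, among them that of Igf2 to H19, at -1.79 ± 0.130 in control and -1.81 ± 0.0940 after neomycin (SD, n = 3), whose difference of -0.02 became 0.18 with the length trend removed.

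**Figure D4:**
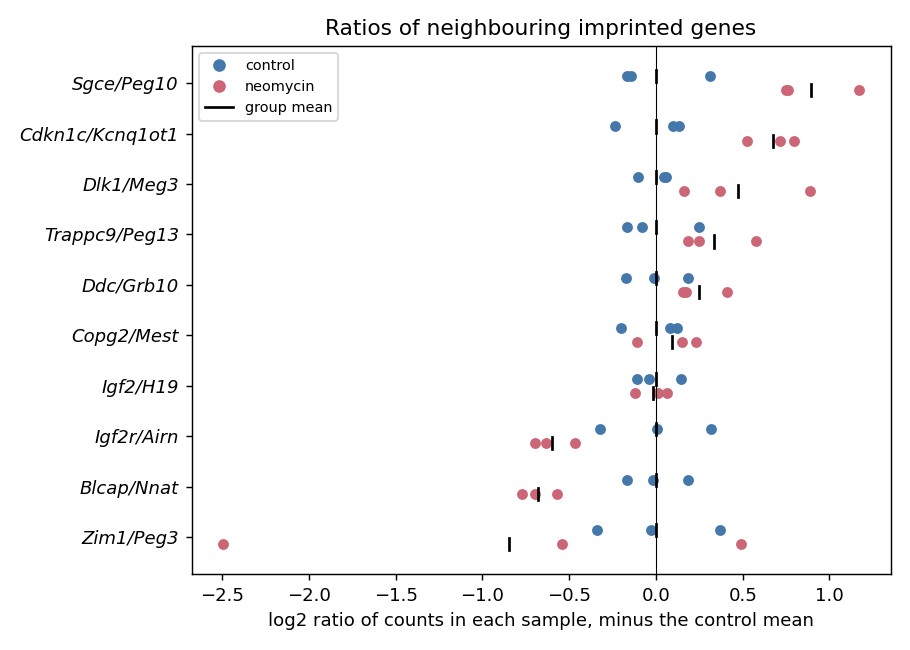
Log2 ratio of the counts of neighbouring imprinted genes in each sample, minus the mean of the 3 control samples, with control above neomycin in each row and black marks for group means. The ratios Sgce to Peg10, Cdkn1c to Kcnq1ot1 and Dlk1 to Meg3 lie higher and Igf2r to Airn and Blcap to Nnat lower in all 3 neomycin samples, and the ratio of Ube3a to Snrpn, which rests on 0 to 4 counts of Snrpn, is not drawn.

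A list of 40 other genes described as imprinted in some mouse tissue, many in the placenta alone, had 39 in the table and 32 tested, of which 6 were higher and 7 lower (edgeR, adjusted p under 0.05), together 40.6% against 29.0% of all genes. Past 1.5-fold there were 8, or 25.0% against 8.84%. With the length correction 11 were called, or 34.4% against 23.5%, some of them not called without it. Their median log2 fold change was -0.03. Qpct, which forms pyroglutamate at the ends of peptides, rose from 19.3 to 55.8 CPM (log2 fold change 1.53, edgeR adjusted p = 3.13e-06). Dcn, the matrix proteoglycan decorin, rose from 840.1 ± 90.4 to 1306 ± 20.4 CPM (SD, n = 3), with a fold change of 0.64 on the log2 scale (edgeR adjusted p = 0.00064). Among those lower, Htr2a, a serotonin receptor, had a log2 fold change of -3.11, Ago2, the slicer of RNA interference, -1.75, Tfpi2, an inhibitor of serine proteases, -1.63, Ampd3, an AMP deaminase, -0.91, Atp10a, a lipid flippase, -0.79, and Inpp5f, a phosphoinositide phosphatase, -0.66 (edgeR, adjusted p from 0.000115 to 0.0103). The fall of Htr2a rested on few counts, 44, 20 and 33 in control and 2, 2 and 6 after neomycin. Tfpi2 was uneven in control, with 261, 718 and 589 counts, against 92, 204 and 203 after neomycin. Dio3, the deiodinase at the end of the Dlk1 domain, had at most 4 counts.

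A list of 24 regulators of imprinting held genes that set, keep or erase imprints. Of these, 22 were tested, and 5 were lower and 0 higher (edgeR, adjusted p under 0.05), against 16.1% and 12.9% of all genes. At an unadjusted p under 0.05 there were 8 lower and 0 higher, and the Wald test of DESeq2 and limma-voom also called 0 higher. None passed 1.5-fold. Dnmt1, the maintenance DNA methyltransferase, was at 83.8, 80.1 and 69.5 CPM in control and 60.0, 57.0 and 54.9 CPM after neomycin. The groups of Dnmt1 did not overlap, and its log2 fold change was -0.44 ± 0.08 (SE, edgeR adjusted p = 0.00225). Zfp445, a zinc finger protein that protects imprints, fell from 118 to 95.8 CPM (edgeR adjusted p = 0.0163), and Tet2, Tet3 and Suz12 had log2 fold changes of -0.44, -0.44 and -0.24. Uhrf1, the partner of Dnmt1 at replication forks, was at 19.8 ± 2.51 and 15.8 ± 1.53 CPM (SD, n = 3), just short of the threshold (edgeR adjusted p = 0.05001). Zfp57, Trim28 and Ctcf, which bind imprinting control regions or the proteins on them, had log2 fold changes of 0.05, 0.05 and -0.01 and were not called. The summed level of the proliferation genes given above was lower in the mean, as Dnmt1 and Uhrf1 were, but overlapped between groups. Its part was not tested. With the length trend removed Dnmt1 stayed called, at -0.32 (edgeR adjusted p = 0.00380), and Zfp445, Tet2, Tet3 and Suz12 did not, with adjusted p-values of 0.0688, 0.243, 0.1001 and 0.0579. Ezh2, a Polycomb methyltransferase named after its values were seen, was then called at 0.27 (edgeR adjusted p = 0.0422). That made 2 of 22 called, or 9.09%, against 23.5% of all genes in that fit. Leaving out control replicate 2 or neomycin replicate 3 left 2, and leaving out neomycin replicate 2 left 3. Over all genes these 3 fits called 2567, 3001 and 2518, against 4629 with all samples.

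**Figure D5:**
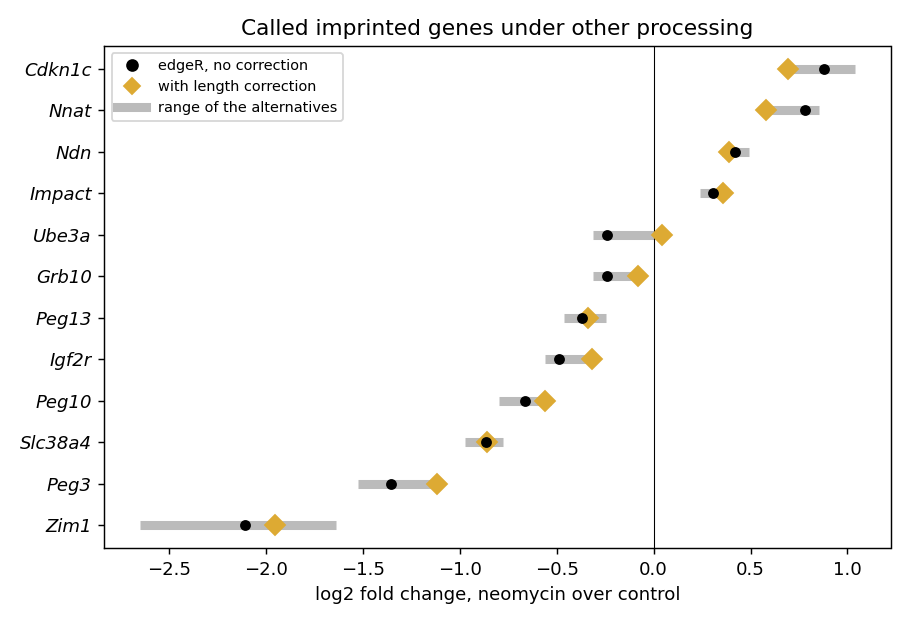
Log2 fold change of the 12 called imprinted genes as fitted by edgeR (black), with the exon length trend removed (yellow), and the range over the alternative analyses (grey bar). Peg3, Slc38a4, Peg10, Igf2r, Ndn, Nnat and Cdkn1c keep direction and call in every alternative. Zim1, Grb10, Impact and Peg13 keep their direction but lose the call in some, while the bar of Ube3a crosses 0.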

How the data were processed

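Base calling by Casava 1.8, trimming by Trimmomatic 0.23, alignment to mm10 by Hisat2 and counting by HTSeq, with UCSC gene models, were done by the study. What the authors deposited are raw counts, 1 whole number per gene symbol and sample. How reads on several features or strands were treated is not given in the sources used here. Of the 24421 symbols, 23376 matched GENCODE M21 directly and 656 through another symbol, which gave coordinates and exon lengths. These lengths may differ from those of the UCSC models counted, and values with the length trend removed share that limit.

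Neomycin was compared with control by edgeR 4.0.16 (R 4.3.3; TMM scaling, filterByExpr, quasi-likelihood test, Benjamini-Hochberg over 15988 genes). DESeq2 1.42.0, limma 3.58.1 (voom), other scalings and filters, a replicate block, omission of each sample, and removal of each sample's lowess trend (span 0.3) on exon length, for the 99.2% of tested genes with a length, were alternatives. Ratios used 0.5 added counts. Replicates differed by more than sampling noise (mean chi-square per gene of 13.7 to 46.7). On simulated counts of 15823 genes, 159 of 200 genes changed 2-fold were recovered with 11 false calls, and a length slope of -0.2 was left at -0.00103 after correction. The members and lists were chosen with earlier results of these data known. Every member may be named; other genes are those of the lists with an adjusted p under 0.05, at most 8 per list by fold change, plus fixed ones. Figures were drawn with matplotlib 3.10.9.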

Additional observations from a re-analysis of the deposited data

How the results depend on the processing

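Of 554 refitted log2 fold changes of tested members, 460 kept direction and side of the threshold, 29 lost the call, 26 gained it and 39 turned direction. The length correction gave 9 members higher and 5 lower, 2 lower past 1.5-fold, a median of 0.048 and 2 regulators. The replicate block with the length correction gave 9 higher, 2 lower past 1.5-fold and a median of 0.048. Library totals alone gave a median of -0.061. At an adjusted p under 0.01, 4 members were lower, and past 2-fold 0 were higher and 2 lower. Omission of single samples moved the members higher between 3 and 5, those lower between 4 and 8, those higher past 1.5-fold between 2 and 3, those lower past it between 2 and 4, the median between -0.010 and 0.085, other imprinted genes between 8 and 15 and regulators between 2 and 7. Over all genes, 2518 to 5341 were called in those fits, against 4629 with all samples.

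The length correction turned H19 to -0.125, Rian to 0.058, Trappc9 to 0.114, Ube3a to 0.044 and Nap1l5 to -0.074, and with the replicate block as well these were -0.131, 0.058, 0.114, 0.043 and -0.058, with Phlda2 at -0.0049. Library totals alone turned H19 to -0.065, Meg3 to -0.043, Copg2 to -0.066, Ddc to -0.061 and Sfmbt2 to -0.065. Copg2 was -0.0012 without a filter and -0.00014 with a filter of 1 CPM, Trappc9 0.0016 with upper quartile scaling, and H19 -0.0030 by limma-voom and -0.0014 with the replicate block. Omission of single samples moved H19 between -0.101 and 0.102, Meg3 between -0.058 and 0.090, Mest between -0.243 and 0.028, Copg2 between -0.045 and 0.031, Trappc9 between -0.105 and 0.029, Ddc between -0.084 and 0.069, Sfmbt2 between -0.045 and 0.043 and Asb4 between -0.842 and 0.313, and the log2 ratio differences of Igf2 to H19 between -0.069 and 0.056 and of Copg2 to Mest between -0.010 and 0.191. The cause was not tested.

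The replicate numbers were not shown to pair the samples, since deviations of same-numbered samples correlated at 0.30, 0.04 and 0.17 and control replicate 2 did not correlate best with its own number. With the replicate block 6014 genes were called in place of 4629, and 8 regulators, 6 members higher and 9 lower, with adjusted p-values of 0.00899 for Plagl1, 0.0303 for Dlk1, 0.0260 for Sgce, 0.0228 for Rian and 0.0564 for Zim1. DESeq2 gave no adjusted p for Zim1 and Asb4. Library totals alone called 1349 genes higher and 3200 lower, where TMM gave 2058 and 2571. Low counts limit Zim1, Usp29, Phlda2 and Asb4, and Htr2a among the other imprinted genes.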

Other observations

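Rows of microRNAs in imprinted domains held few counts and were not tested. Mir296, beside Gnas on chromosome 2 and chosen after its values were seen, had 2, 5 and 4 counts in control replicates 1, 2 and 3 and 12, 8 and 14 in the neomycin samples. The raw counts of Mir296 did not overlap between groups. The share of 43.5% without overlap is that of the genes tested, in scaled CPM, and does not cover rows this low. Its mature forms, from RefSeq, with the seed (bases 2 to 8) in capitals, are given here.
mmu-miR-296-5p: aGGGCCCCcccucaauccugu
mmu-miR-296-3p: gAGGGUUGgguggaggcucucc

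Mir298, from the same stretch, had at most 2 counts and Mir335, inside Mest, at most 1 count in any sample.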
